A study of Drosophila melanogaster with 25 samples.

Results

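Among 25 RNA-seq libraries of Drosophila melanogaster brain, 5 held the photoreceptor channel transcript trp at 100 RPKM or more, and these are called retina-rich here. RPKM is a gene's read number divided by its length in kilobases and by the total of the library. The 5 libraries were selected on that measured value: they are female control 4, male control 4, male control 5, male control 6 and male PDE 3. They were set against the 13 retina-poor libraries, with trp under 100 RPKM, of the same 3 groups, so that 18 of 25 libraries entered. The study placed its flies in 4 groups by sex and treatment, female controls (n = 5), female PDE (n = 7), male controls (n = 7) and male PDE (n = 6). PDE stands for long-term photodynamic exposure, in which light and a photosensitiser form reactive oxygen species, and the controls are described as normal flies. Sample titles carry the letters PDT, the design text PDE; the 2 terms were assumed to mean 1 treatment. The compound, the light, the duration, the strain and the age of the flies were not given in the labels, nor is it stated whether a library is 1 fly, a pool or a repeat. The p values below therefore reflect only how far the libraries differ from each other, which may be technical.

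The fly retina is made of repeated eye units, each with outer and inner photoreceptors that stack their opsins in light-sensing membranes called rhabdomeres. Light-activated opsin turns on a Gq protein and a phospholipase C, which opens the TRP and TRPL channels; an arrestin then shuts the opsin off. Photoreceptors signal to the optic lobe with histamine, and the retina borders the lamina, the outermost optic neuropil, so a dissected brain may carry retinal tissue.

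Both markers of the retina stood together in the 5 libraries. The trp level was 298.3 RPKM in female control 4, 269.3 in male control 4, 159.4 in male control 5, 210.5 in male control 6 and 267.6 in male PDE 3, and in the 13 retina-poor libraries it ran from 0.885 to 74.0 (median 10.3). The ninaE gene, which encodes the major opsin Rh1 of the outer photoreceptors, was at 5299, 5697, 3053, 3555 and 5078 RPKM in the same order, against 11.9 to 1303 (median 112). No retina-poor library reached the lowest retina-rich one in ninaE, whereas for trp this was fixed by the limit that chose the libraries. The libraries nearest to the limit were male control 5 at 159.4 RPKM and male control 7 at 74.0 RPKM of trp. Male control 1 held 54.8 RPKM, so trp was graded below the limit and the split is not a clean gap. The trp gene lies at 3R:29914521-29920289 and ninaE at 3R:19886255-19888206 in the Ensembl BDGP6.54 annotation. In bulk RNA, fewer photoreceptors and less RNA per photoreceptor cannot be told apart.

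**Figure D1:**
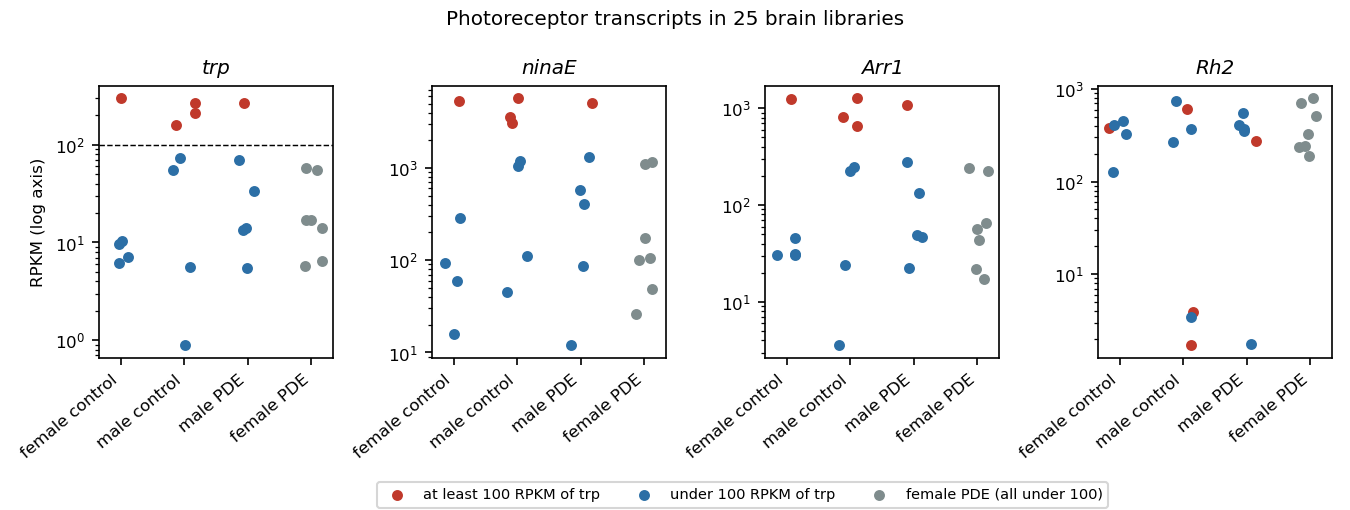
RPKM (log axis) of trp, ninaE, Arr1 and Rh2 in each of the 25 libraries, 1 point per library, by group; the dashed line marks 100 RPKM of trp. The 5 retina-rich libraries stand above all others of their group for ninaE and Arr1, and for trp by the limit that chose them. For Rh2 they lie among the others or, for male control 5 and male control 6, near 0.

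The retina-rich libraries came from 1 of 5 female controls, 3 of 7 male controls, 1 of 6 male PDE and 0 of 7 female PDE libraries. By treatment this was 4 of 12 control and 1 of 13 PDE libraries, a difference that did not pass Fisher's exact test (two-sided p = 0.16). With the limit at 50 RPKM the counts were 6 of 12 and 4 of 13 (exact p = 0.428), and at 200 RPKM they were 3 of 12 and 1 of 13 (exact p = 0.322). Their library totals, recovered from the steps between low RPKM values, ran from 24.94 to 38.15 M reads (M stands for 1e6; median 31.71), within the 8.88 to 58.73 M (median 27.83) of the retina-poor libraries.

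A gene was counted as higher where its mean on the log2(RPKM + 1) scale, with group as a covariate, was at least 1 above that of the retina-poor libraries and where, within each of the 3 groups, every retina-rich library lay above every retina-poor one. By this rule 85 of 7985 genes tested (1.06%) were higher and 0 were lower. Because trp chose the libraries and other retinal genes vary with it, these counts and the differences below describe the split, carry no p and support nothing. All 85 genes were protein coding, their differences ran from 1.01 to 5.04 (median 2.04) against a median of -0.02 over all genes tested, and 44 had a difference of 2 or more. Without the limit on size, 216 genes did not overlap in the higher direction and 87 in the lower one, and among the latter the largest fall was -0.27 (log2 scale). Of the 85, 27 belong to the lists of eye genes used here, 58 do not, and 32 carry only a CG number. For 3 of them (RabX5, Swim and Cpr49Af, named after their values were seen) no library beyond the 5 retina-rich ones reached 1 RPKM. CG13071 and CG5697, named in the same way, also stayed under 1 RPKM in every retina-poor library (highest 0.849 and 0.459). How many others met the minimum of 1 RPKM in 5 libraries only with the help of the retina-rich ones was not counted.

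The opsins of every photoreceptor class of the compound eye had a difference above 3.5. Among 7 rhodopsin genes, 3 were counted as higher and the median difference of the list was 3.90. Rh3, an ultraviolet opsin of the inner R7 cells, was at 1147 RPKM in female control 4, 831.8 in male control 4, 519.0 in male control 5, 283.6 in male control 6 and 737.8 in male PDE 3. In the retina-poor libraries Rh3 ran from 2.37 to 159 RPKM (median 12.7), so the sets did not overlap, and the difference was 5.04 (SE 0.999, log2 scale), the largest of all 85. Rh4, the other R7 opsin, was at 56.62, 87.68, 62.85, 30.83 and 97.86 RPKM in the same order, against 0.343 to 23.5, a difference of 3.90 (SE 0.719). That of ninaE was 4.58 (SE 1.01). Part of the Rh4 span, 4962 of 9991 bases, is shared with sina on the opposite strand, and whether the reads were counted by strand is not stated in the labels.

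The opsins of the inner R8 cells, Rh5 (blue) and Rh6 (green), had large differences but were not counted, which was noticed after their values were seen. Rh5 was at 513.9, 505.0, 282.2, 117.2 and 476.9 RPKM in the 5 retina-rich libraries and Rh6 at 155.9, 225.5, 178.5, 70.39 and 265.8. In both genes male control 6 lay below the retina-poor male control 1, which held 168.2 RPKM of Rh5 and 96.41 of Rh6. The differences were 4.44 (SE 1.02) for Rh5 and 3.57 (SE 0.807) for Rh6. Rh7, an opsin used by brain clock neurons, was alike in both sets, at 2.17 to 2.89 RPKM against 1.75 to 3.65, with a difference of 0.01 (SE 0.0927).

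Rh2, the opsin of the ocelli, the simple eyes on top of the head, did not follow trp. It was at 374.7 RPKM in female control 4, 603.6 in male control 4 and 277.0 in male PDE 3, but at 3.89 in male control 5 and 1.71 in male control 6. Among the retina-poor libraries it was at 3.42 RPKM in male control 3 and 1.77 in male PDE 4. Rh2 thus fell into 2 sets that cut across the retina-rich and retina-poor libraries: 4 male libraries under 4 RPKM, and all others, females included, between 125 and 792 RPKM. The difference of -1.11 (SE 1.49) was smaller than its error. This split of Rh2 was noticed in the data, and what set the 4 libraries apart was not tested.

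**Figure D2:**
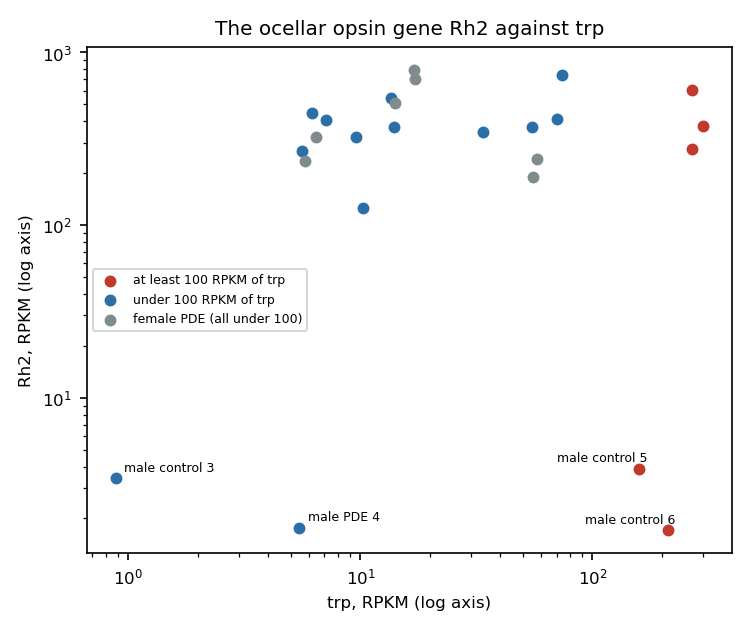
Rh2 against trp in the 25 libraries, both in RPKM on log axes, 1 point per library. The 4 named male libraries lie under 4 RPKM of Rh2, 2 of them retina-rich and 2 retina-poor, while every other library is at 125 RPKM or more at any level of trp.

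Of the phototransduction list, 9 of 19 genes tested were higher, with a median difference of 0.75. They were both channels (trp at 4.07, SE 0.708; trpl at 3.70, SE 0.53), the eye G protein beta subunit Gbeta76C (3.67, SE 0.616), the eye protein kinase C inaC (3.67, SE 0.671), the scaffold inaD that holds the channel and its partners together (3.39, SE 0.541), the myosin kinase ninaC (3.43, SE 0.615), its partner retinophilin (rtp, 3.93, SE 0.628), the calcium-binding calphotin (Cpn, 3.86, SE 0.583) and the lipid phosphatase laza (2.82, SE 0.41). The inaD gene was at 139.4, 138.5, 92.01, 63.53 and 146.6 RPKM in female control 4, male controls 4 to 6 and male PDE 3, against 2.11 to 38.7 (median 6.53) in the retina-poor libraries, with no overlap. The trpl gene was at 46.78, 77.97, 50.43, 28.57 and 78.08 RPKM, against 0.223 to 13 (median 3.02). The order of the libraries differed between genes: trpl was lowest in male control 6, whereas Cpn was highest there, at 152.8 RPKM against 43.18 to 84.16 in the other 4.

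Other genes of the cascade, picked after their values were seen, differed little. The part of expression in brain neurons in this was not tested. The phospholipase C gene norpA was at 24.09 to 33.18 RPKM in the retina-rich and 13.8 to 20.7 in the retina-poor libraries, without overlap, but its difference was 0.75 (SE 0.0843) and so under the size required. The G protein alpha subunit Galphaq was at 76.1 to 86.2 RPKM against 77.4 to 118, and the gamma subunit Ggamma30A at 120 to 137 against 92.7 to 125. Their differences were -0.09 (SE 0.0676) and 0.23 (SE 0.0656). The exchanger gene Calx differed by 0.25 (SE 0.0592). Among the 3 subunits of the visual G protein, only the beta subunit was therefore counted.

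For shutoff and opsin handling, 2 of 7 genes tested were higher, with a list median of 0.69. Arr1, which encodes arrestin 1, was at 1234, 1265, 812.6, 653.2 and 1072 RPKM in the 5 libraries, against 3.56 to 276 (median 45.4), a difference of 4.30 (SE 0.762). Xport-B, a chaperone for Rh1 and TRP, differed by 2.70 (SE 0.481), and 1017 of its 1093 bases are shared with Xport-A on the same strand. Mppe, a phosphatase needed for the trimming of the sugar of Rh1, was not on the lists and is given after its value was seen. Its difference was 2.15 (SE 0.2), and it varied least of the 85 genes, from 82.95 to 101.4 RPKM across the retina-rich libraries (coefficient of variation 8.76%). The retina-poor libraries held 13.7 to 35.0 RPKM of Mppe.

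Several well-known eye genes were listed at 0 in every library, so nothing can be read from them about the retina. They include Arr2, ninaA, stops, PIP82, inaF-A and the pigment transporters w and st. Each of Arr2, ninaA, stops, PIP82, w and st lies wholly inside a gene on the opposite strand. In the whole table, 1639 of 1808 genes inside another gene (90.7%) were at 0 in every library, against 839 of 14189 others (5.91%). The neuronal gene elav, almost wholly inside arg, was also at or near 0. Of the 85 higher genes, 21 overlapped a gene on the opposite strand. The share among all genes tested was not counted, so nothing is read from this number. Among the 21, Pex7 (difference 1.35, SE 0.184) covers all 1676 bases of Arr2, and CG15221 (2.75, SE 0.441) overlaps inaF-A, inaF-B, inaF-C and inaF-D. Which gene of such a pair gave the reads cannot be told apart here.

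In the chromophore list, whose genes make and recycle the vitamin A derived part of the opsins, 3 of 7 were higher and the median was 0.96. Pdh, a retinol dehydrogenase of the pigment cells, was at 313.1, 510.3, 268.1, 142.3 and 605.4 RPKM, against 4.86 to 131 (median 32.5), a difference of 3.38 (SE 0.672). The retinol dehydrogenase gene rdhB differed by 2.0 (SE 0.301) and ninaG, an oxidoreductase that forms the fly's hydroxylated retinal, by 1.91 (SE 0.304). The retinoid-binding gene pinta, at 0.96 (SE 0.181), was not counted. Of Pdh, 419 of 1065 bases are shared with an antisense RNA gene.

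Of the 12 structure genes, 2 were higher, and the list median was 0.20. The chaoptin gene chp, a rhabdomere adhesion protein, was at 149.5, 149.1, 93.73, 101.0 and 170.7 RPKM, against 0.882 to 38.0 (median 4.15), a difference of 4.23 (SE 0.698). Prominin (prom), which keeps rhabdomeres apart, differed by 2.19 (SE 0.244). Genes with wide use in other epithelia differed less, with crb at 0.60 (SE 0.0727) and Moe at 0.38 (SE 0.0642).

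Of 9 identity genes, 2 transcription factors were higher, and the list median was 0.03. Pph13, which switches on phototransduction genes, was at 17.19, 17.35, 9.64, 13.54 and 25.59 RPKM, against 0.0853 to 5.78, a difference of 2.61 (SE 0.356). The glass gene (gl), needed for photoreceptor fate, differed by 1.95 (SE 0.245). Of the same list, eya and oc differed by 0.53 (SE 0.0613) and 0.28 (SE 0.0723).

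Histamine cycle genes were mixed. Of 9 genes 4 were higher (list median 0.25): tan (t), which frees histamine from carcinine in photoreceptors, by 3.17 (SE 0.457), the carcinine transporter CarT by 2.36 (SE 0.344), the synthesis enzyme Hdc by 1.13 (SE 0.127) and the histamine-gated channel HisCl1 by 1.02 (SE 0.107). The t gene was at 40.94, 35.21, 21.87, 19.23 and 32.85 RPKM against 0.189 to 8.51 (median 2.15), with no overlap. Among the members not counted, ort and ebony (e), given after their values were seen, did not differ by more than their error. The difference was 0.00 (SE 0.135) for ort, the receptor on lamina neurons, and -0.06 (SE 0.227) for e, the glial enzyme that inactivates histamine. Balat, lovit and Inx2 were not counted either, and no division by cell type is read from this list.

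Genes of the eye's accessory cells were mixed. Of 16 eye pigment genes 2 were higher (median 0.04): sepia (se), an enzyme of the red drosopterins, by 3.34 (SE 0.442) and Punch (Pu), the first enzyme of pteridine synthesis, by 1.05 (SE 0.117). Hn, the phenylalanine hydroxylase gene, overlapped between the sets, with a difference of 1.62 (SE 0.352), and kar differed by 0.33 (SE 0.096). The lens and corneal list had 1 gene tested, Cpr72Ec, at 3.53 to 16.3 RPKM against 0 to 3.98, which overlapped, while the lens protein gene Crys stayed between 0.0436 and 0.198 RPKM in the retina-rich libraries. The corneal protein gene retinin, chosen after its values were seen, was higher by 1.55 (SE 0.247). The 5 libraries were thus rich in the opsins of all photoreceptor classes of the compound eye. The lens and corneal list summed to 4.79 to 17.2 RPKM in them against 0.16 to 4.33, but in the retina-rich libraries most of this was Cpr72Ec. That gene differed by 2.54 and overlapped, and 0 members of the list were counted as higher. The other 6 members did not pass the minimum, with Vajk1, Vajk2 and Vajk3 at 0 in every library. No statement on lens and corneal genes as a set is therefore made.

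**Figure D3:**
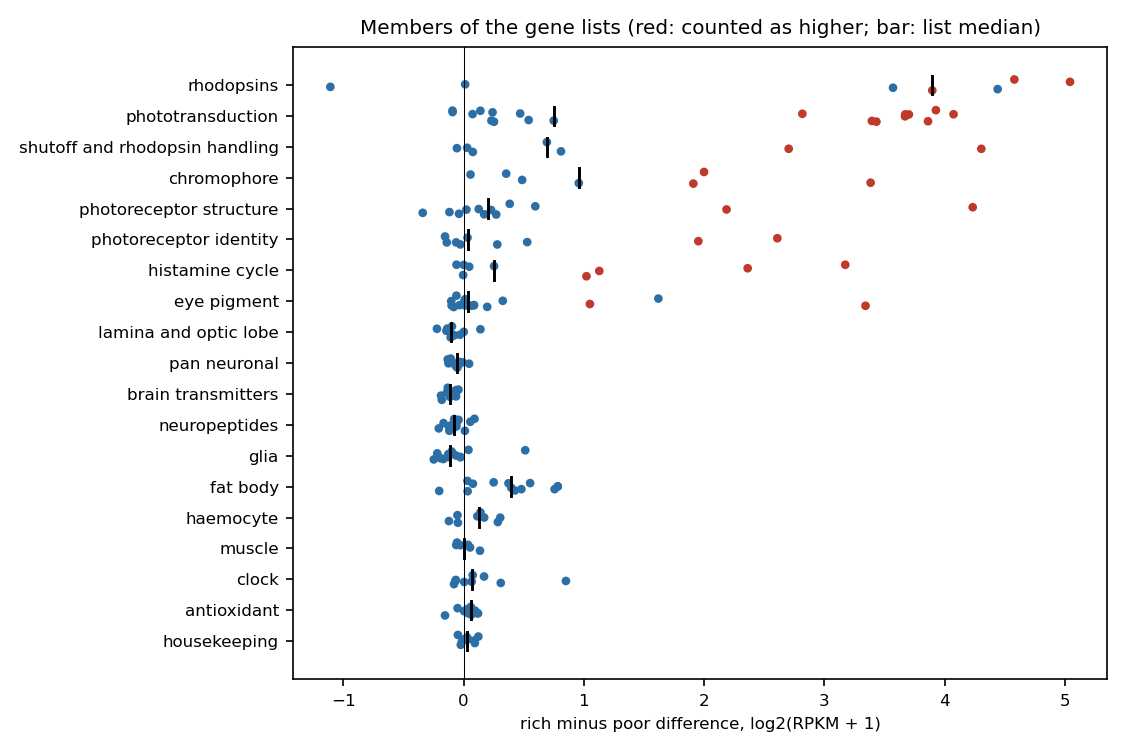
Difference between retina-rich and retina-poor libraries on the log2(RPKM + 1) scale for each tested member of 19 gene lists, 1 point per gene; red points are counted as higher and the black bar is the list's median. The red points lie in the rows of the 8 eye lists, and the rows from lamina to housekeeping hold none.

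Of the 85 genes outside the rhodopsin, phototransduction, shutoff and histamine lists, the 20 with the largest differences and a mean of at least 5 RPKM were chp, CG6870, CG4842, CG40485, Culd, CG34134, Pdh, se, Cpr49Ag, CG13077, CG13305, CG15221, boss, GstE14, Pph13, Achl, Rab32, CG40486, SmydA-8 and CG6429, from 4.23 down to 2.41. CG6870 differed by 4.13 (SE 0.731), with 168.3, 210.0, 78.95, 99.44 and 268.8 RPKM against 1.30 to 36.8. CG34134 was the most abundant CG-numbered gene of these 20, at 396.6, 421.8, 208.7, 258.5 and 365.8 RPKM against 8.35 to 84.2, a difference of 3.44 (SE 0.492). Among those with a known role, Culd, needed for the endocytosis of Rh1 and TRPL, differed by 3.60 (SE 0.535). The sevenless ligand boss, made by R8 cells, differed by 2.65 (SE 0.369), and Rab32, a GTPase of pigment granules, by 2.46 (SE 0.292). The other differences were 2.65 (SE 0.365) for GstE14, an enzyme known from ecdysteroid synthesis, 3.08 (SE 0.441) for the cuticle protein gene Cpr49Ag, 2.51 (SE 0.379) for Achl and 2.43 (SE 0.318) for SmydA-8. The remaining CG-numbered genes of the 20 had differences of 3.88 (CG4842), 3.77 (CG40485), 3.08 (CG13077), 3.02 (CG13305), 2.45 (CG40486) and 2.41 (CG6429).

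The 5 retina-rich libraries were not alike. Of the 85 genes, 50 were highest in male PDE 3, 19 in male control 4, 11 in female control 4, 5 in male control 6 and 0 in male control 5. Conversely 44 were lowest in male control 5 and 35 in male control 6. A gene's level in a library relative to its mean over the 5 had a median of 1.26 in male PDE 3, 1.19 in male control 4, 1.08 in female control 4, 0.714 in male control 6 and 0.698 in male control 5. The coefficient of variation over the 5 libraries had a median of 32.0% and reached 60.9% for CG11426.

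Scaling to trp did not make the libraries equal. The ratio of the ninaE to the trp level ran from 16.9 to 21.2, but that of Rh3 to trp was 1.35 in male control 6 and 2.76 to 3.85 in the other 4. Accordingly ninaE made up 87.6% of the summed RPKM of the 5 compound eye opsins in male control 6 and 73.9 to 77.5% in the others. In female control 4 the ratio of Rh3 to Rh4 was 20.3, against 7.54 to 9.49 in the 4 male libraries, and that of Rh5 to Rh6 was 3.30, against 1.58 to 2.24. These are ratios of RPKM over each gene's full span. With 1 retina-rich female library there is no replicate check between the sexes. In female PDE 2 and 3, the female libraries next in trp, Rh3 to Rh4 was 17.0 and 8.51 and Rh5 to Rh6 was 4.29 and 2.18, so the former was nearer to female control 4 and the latter within the range of the males for Rh3 to Rh4 and for Rh5 to Rh6.

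The size of the gap also depended on the group. The median difference of the 85 genes was 2.36 in female controls, 1.82 in male controls and 2.34 in male PDE. The trp level of the 4 retina-poor female controls was 6.17 to 10.3 RPKM, while male controls 1 and 7 held 54.8 and 74.0 RPKM and male PDE 5 held 70.5. For trp itself the difference was 5.04, 3.79 and 3.72 in the same order of groups. Male PDE 4 stood apart among the retina-poor libraries, as noticed in the data, with 404 RPKM of ninaE and 17.1 of inaD at 5.45 of trp and 3.84 of Rh3.

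**Figure D4:**
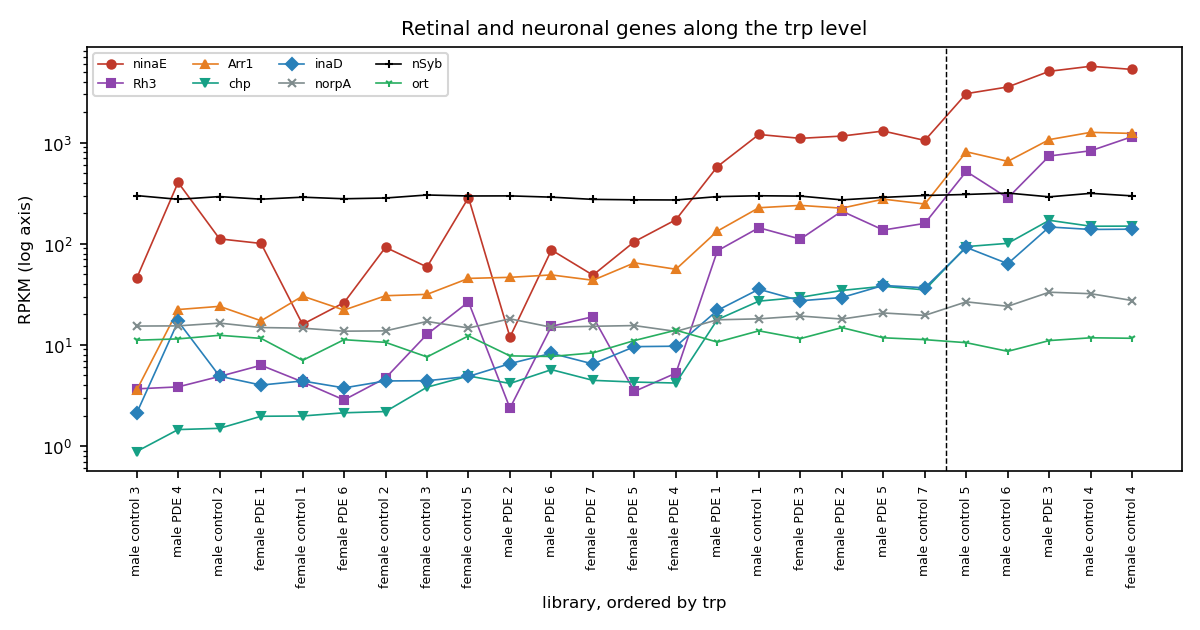
RPKM (log axis) of 8 genes in the 25 libraries, ordered from left to right by trp; the dashed line separates the 5 retina-rich libraries. The lines of ninaE, Rh3, Arr1, chp and inaD climb to the right, norpA does so weakly, and nSyb and ort stay level.

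Lists of tissue markers other than retinal ones held 0 genes counted as higher or lower. With 1.06% of all genes counted, a list of this size is likely to hold 0, so the levels and medians are the description and nothing is read from the counts. The lamina and optic lobe list had 0 of 11 higher (median -0.11), with a summed level of 40.7 to 46.7 RPKM against 39.1 to 51.3. Its largest differences were -0.22 for hbn, -0.14 for ap, 0.14 for bsh and -0.14 for pdm3, all transcription factor genes. The pan-neuronal list had 0 of 10 (median -0.06, summed level 672 to 731 against 653 to 805 RPKM), where fne, brp, unc-13 and Appl differed by -0.13, -0.13, -0.11 and -0.07. The synaptic vesicle gene nSyb was at 291 to 317 RPKM against 275 to 304. The transmitter list had 0 of 10 (median -0.11, summed level 692 to 855 against 743 to 910 RPKM). All its differences were negative, from -0.19 to -0.04, with DAT at -0.19, Tbh at -0.18, Vmat at -0.14 and Gad1 at -0.13. The neuropeptide list had 0 of 16 (median -0.08), with Crz at -0.21, Dh44 at -0.17, sNPF at -0.12 and Tk at -0.12. Glia had 0 of 12 (median -0.11, summed level 892 to 1150 against 879 to 1430 RPKM), with Gli at 0.51, htl at -0.25, Gat at -0.22 and vkg at -0.19. These medians, from -0.11 to -0.06, all lie slightly below the -0.02 of all genes.

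Other head tissues also had 0 genes counted. Fat body had 0 of 13 higher and the highest median of these lists, 0.40, but its summed level ran from 468 to 1520 RPKM against 170 to 6500. Its largest members were Yp1 (0.78, SE 0.637), Lsp2 (0.78, SE 0.443), Yp3 (0.76, SE 0.651) and Yp2 (0.55, SE 0.703). Haemocyte genes had 0 of 8 (median 0.13, summed level 63.9 to 99.4 against 53.9 to 105 RPKM), with crq at 0.31 (SE 0.0594), Sr-CI at 0.29 (SE 0.351), eater at 0.17 (SE 0.218) and NimC1 at 0.14 (SE 0.316). The scavenger receptor gene crq did not overlap within any group, and its difference was under the size required. Sr-CI and NimC1 turned to -0.02 and -0.14 without female control 4. Muscle had 0 of 6 (median 0.01, summed level 12.0 to 38.1 against 11.0 to 90.1 RPKM), with Mlc1 at 0.14 (SE 0.475) and TpnC73F, Act87E and Mlc2 within 0.06 of 0. None of 12 cuticle genes passed the minimum, at a summed 2.15 to 3.33 against 1.18 to 3.52 RPKM. Of the olfactory list 0 of 4 were higher, though Obp19d, an odorant-binding protein gene, had a difference of 1.33 (SE 0.28) with overlap; Obp56d was at -0.42, Or22a at -0.06 and Orco at 0.00. The part of these tissues in the 85 genes was not tested.

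Clock, stress and housekeeping genes also had 0 members counted, which is again near the share of all genes. Of the clock genes (0 of 9, median 0.07) Clk had a difference of 0.85 (SE 0.138) and cry, tim and cwo of 0.31, 0.17 and -0.08. The list of genes known from earlier results to respond to PDE in these data had 0 of 16 (median -0.04), with TotA at 0.90 (SE 0.551), CG17224 at -0.75, TotC at 0.72 and lncRNA:CR32368 at -0.69. Antioxidant genes had 0 of 12 (median 0.06), with Sod3, Sod1, Sod2 and Gclm at -0.15, 0.12, 0.11 and 0.10. Housekeeping genes had 0 of 9 (median 0.03), with alphaTub84B at 0.12, eEF1alpha1 at 0.09 and 14-3-3epsilon at -0.05.

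The 7 female PDE libraries, which the split did not use, allowed a test of which genes vary with trp. Their trp levels were 5.79, 57.94, 55.45, 17.15, 17.03, 6.43 and 14.15 RPKM for replicates 1 to 7, so 2 libraries held most of the range. A slope on log2(trp + 1) was fitted to each gene with limma, and 20 of 7984 genes (0.251%) had a positive slope and 0 a negative one at a Benjamini-Hochberg adjusted p under 0.05. With ninaE in place of trp as the term 0 slopes were called positive, and without the minimum on RPKM 9 were positive and 1 negative. Without adjustment 569 genes were under 0.05, 430 of them negative. All 20 genes called belong to the 84 genes (trp aside) counted as higher in the split, that is 100% of the calls and 23.8% of the 84. All 84 had a positive slope in these libraries, against 2609 of all genes (32.7%), with a median slope of 0.35 against -0.02.

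The gene with the smallest p was Arr1. It was at 17.31, 224.9, 239.7, 55.95, 64.77, 22.09 and 43.56 RPKM in replicates 1 to 7, in nearly the order of trp, and its slope was 1.16 (SE 0.037, limma adjusted p = 1.44e-05). A slope of 1 means that a gene's RPKM + 1 changes in proportion to that of trp. The next were CG34134 (slope 0.76, limma adjusted p = 4.6e-05), rtp (1.11, adjusted p = 4.6e-05), inaD (0.87, adjusted p = 0.000105) and Gbeta76C (0.85, adjusted p = 0.000147). They were followed by Culd (slope 0.78, limma adjusted p = 0.000398), Cpn (1.07, 0.00176), t (0.73, 0.00245), boss (0.55, 0.00389) and trpl (0.71, 0.00408). The other 10 called were chp (1.16), ninaC (0.76), inaC (0.75), CG15221 (0.70), Pdh (0.63), Achl (0.61), Pph13 (0.58), SmydA-8 (0.55), Rab32 (0.47) and prom (0.36).

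None of the opsin slopes passed. In limma ninaE had a slope of 1.52 (SE 0.258, adjusted p = 0.116), Rh3 of 1.62 (SE 0.334, adjusted p = 0.255), Rh5 of 1.5 (SE 0.388, adjusted p = 0.502), Rh4 of 1.02 (SE 0.212, adjusted p = 0.264) and Rh6 of 0.97 (SE 0.239, adjusted p = 0.457). Without replicates 2 and 3 the slopes of Rh4, Rh5 and Rh6 turned to -0.0779, -0.447 and -0.224. ninaE was at 1162 and 1103 RPKM in replicates 2 and 3 and at 26.2 to 173 in the other 5, where its order was not that of trp. Rh2 had a slope of -0.17 (SE 0.229, limma adjusted p = 0.849) and norpA of 0.12 (SE 0.0333, adjusted p = 0.534).

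The slopes rested largely on replicates 2 and 3, the latter also the deepest library of the group at 48.3 M reads. Without both, limma called 4 genes (Arr1, ninaC, Gbeta76C and inaC), and 67 of the 84 genes (79.8%) had a positive slope, against 42.6% of all genes. Leaving out replicate 2 alone left 12 calls and replicate 3 alone 13. When all 20 libraries under 100 RPKM were fitted with group as a term, 81 slopes were called positive and 0 negative. These 81 held all 20 genes above and 71 of the 84, and among them were ninaE (slope 1.11, limma adjusted p = 0.0173) and Rh3 (1.34, adjusted p = 8.04e-05). That fit shares its 13 retina-poor libraries with the split.

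**Figure D5:**
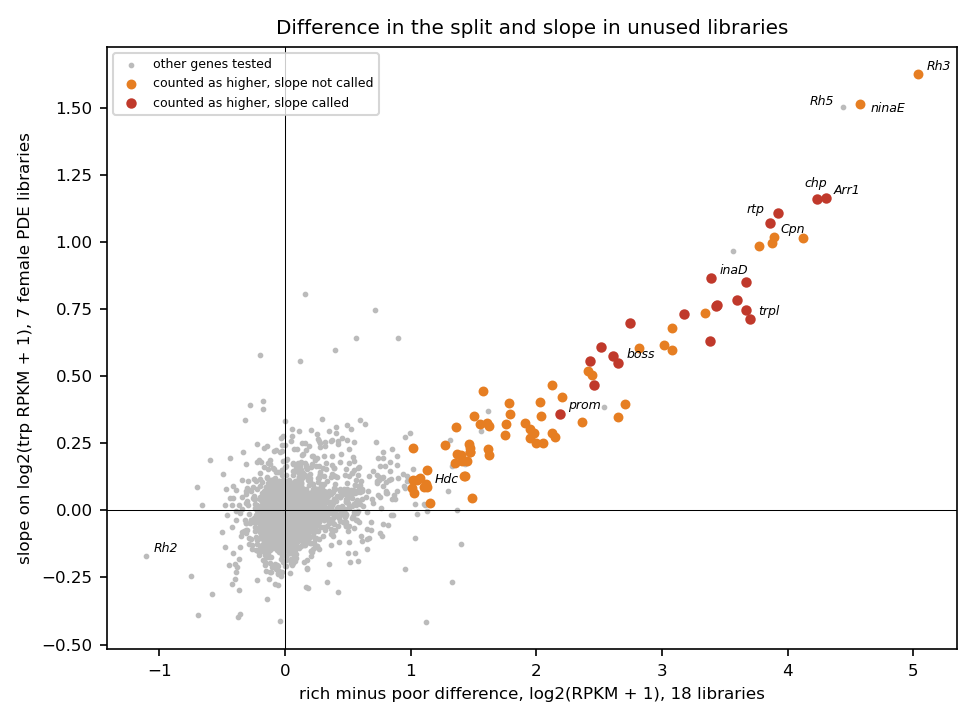
Slope on log2(trp RPKM + 1) in the 7 female PDE libraries (vertical axis) against the retina-rich minus retina-poor difference on the log2(RPKM + 1) scale (horizontal axis), 1 point per gene tested in both. Genes counted as higher (orange, and red where the slope was called) all lie above 0 on the vertical axis, with the opsins Rh3 and ninaE at the top.

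Whether the retinal share touches the comparison of exposed and control flies was examined by adding log2(trp + 1) as a term to the fit of all 25 libraries. With the term, limma called 13 of 7984 genes (0.163%) in males, 8 higher and 5 lower after PDE, and 5 (0.0626%) in females, 4 higher and 1 lower. Without it the counts were 14 and 6. The male count was 7 without male PDE 4 and 8 without male PDE 3, and the female count was 8 without female PDE 1 or without male PDE 6. All 13 and all 5 were also called without the term. The calls lost were Sarm in males (change 0.22 with and without the term, adjusted p = 0.0622 and 0.04 in limma), a regulator of axon degeneration, and CG3008 in females (change 0.35 in both, limma adjusted p = 0.056 and 0.0395).

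Of the genes higher in the retina-rich libraries, none of the 84 other than trp was called for PDE in either sex, with or without the term. At 0.163% and 0.0626% of all genes called, 0 calls among 84 is near the background and says nothing particular about them. In males their median change was -0.39 without the term and -0.11 with it, against 0.01 for all genes. For Arr1 the standard error of the male change was 1.18 without the term and 0.114 with it, while its change was -0.58 and 0.03. Because these genes were chosen for varying with trp, a trp term was bound to lower such errors. The male shift towards 0 therefore supports nothing. In females the median change of the 84 was -0.13 without and -0.15 with the term. The lowest unadjusted p of the 84 with the term was 0.0318 in males and 0.00632 in females, which limma adjusted to 1.0 and 0.606. The male minus female change had 0 calls with the term and 177 genes at an unadjusted p under 0.05.

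Of the genes called for PDE with the term, Arc1, a capsid-like gene of neurons, changed by 1.56 in both sexes (limma adjusted p = 0.000741 in males and 0.00192 in females), and Xrp1, a stress transcription factor, by 0.61 and 0.71 (adjusted p = 0.000174 and 3.77e-05). When the 5 retina-rich libraries were left out and no term was used, 6 genes were called in each sex. In males all 6 were among the 14 called with every library, and among those lost were Arc2 (change 1.07 before and 1.0 after, limma adjusted p = 0.113 after) and TotM (change 4.11 and 4.04, adjusted p = 0.279 after).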

How the data were processed

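The authors deposited 1 table of RPKM values for 16060 genes in 25 libraries, per the labels made from brain RNA (Maxwell RSC simplyRNA extraction, SMART-Seq mRNA LP libraries). The submitters' processing notes name STAR and the build dm6, without versions; which counter, strand setting and annotation were used is not given in the sources used here. Each library's total was recovered from whole-number steps among values of under 20 reads: with the genomic span, introns included, as length, 91.7 to 92.8% of them were whole within 0.01. RPKM over the full span lowers genes with long introns, and levels of different genes should be compared with that in mind. Symbols for 15996 genes and positions came from Ensembl BDGP6.54 (release 115). Columns were matched to samples by name, and 0 were left unassigned.

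Values were analysed as log2(RPKM + 1) for 7985 genes that reached 1 RPKM in 5 or more of 25 libraries. The split was fitted with limma 3.58.1 (R 4.3.3) on 18 libraries with group as covariate, for differences and standard errors only. Slopes on log2(trp + 1) were fitted to the 7 female PDE libraries, and PDE effects to all 25 with trp as a term, with a trend, and p adjusted by Benjamini-Hochberg over all genes but trp. Each fit was tested on simulated data. Counts of libraries were compared with Fisher's exact test (scipy 1.17.1). Alternatives varied the pseudocount, the minimum, the limit on trp, the scaling, the covariates and the libraries.

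The libraries, the 23 gene lists and the tests were chosen with earlier results of these data known. Named were trp and ninaE; members of the rhodopsin, phototransduction, shutoff, histamine and lens lists counted as higher or lower; the 20 other higher genes with the largest differences and a mean of 5 RPKM or more; the 10 slopes with the smallest p; up to 4 members of every other list by size of difference; and genes whose PDE call changed with the trp term. For further genes the text says that their values were known when they were picked; this also holds for Pex7, Arc1, Arc2, TotM and Xrp1. The values of 1 gene that the rule names are not reported here. No sequences were used here.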

Additional observations from a re-analysis of the deposited data

Results flagged for a closer look

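In 12 measures (10 retinal genes, trp among them, the total reads and Rh2) over the 4 groups, 48 sets of libraries were checked for a library far from the rest by Dixon's ratio, the gap to the nearest library divided by the whole range. Chance flags about 1 in 20 sets. Of 48 sets 24 were flagged, but that rate does not apply to the retinal genes of libraries chosen for their trp.

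Female control 4, the only retina-rich library of its group, stood above the other 4 female controls in all 10 retinal genes, with ratios of 0.986 for trp, 0.949 for ninaE, 0.981 for Rh3, 0.955 for Rh4, 0.973 for Rh5, 0.911 for Rh6, 0.987 for Arr1, 0.98 for chp, 0.996 for inaD and 0.76 for norpA. Male PDE 3 stood above the other 5 male PDE libraries in the same genes, with 0.752 for trp, 0.745 for ninaE, 0.817 for Rh3, 0.762 for Rh4, 0.844 for Rh5, 0.758 for Rh6, 0.758 for Arr1, 0.784 for chp, 0.77 for inaD and 0.686 for norpA. These 20 flags come from 2 libraries that were chosen for their trp, so they are not separate findings. In male controls, where 3 of 7 libraries were retina-rich, none of the 10 genes was flagged.

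In total reads, 4 libraries stood apart, none of them retina-rich: female control 3 was lowest (0.756), male control 7 highest (0.666), male PDE 1 lowest (0.696) and female PDE 3 highest (0.63). Female PDE 3 is also 1 of the 2 libraries on which the slopes mainly rested, and the part of its depth in them was not tested.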

How the results depend on the processing

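The count of 85 higher genes was 49 with a pseudocount of 5, 52 with a minimum of 5 RPKM in 5 libraries, and 51 with the limit at 200 RPKM of trp. Leaving out 1 library gave 81 to 94 higher genes, and 0 were lower under any setting tried. The slope in female PDE libraries was called for 9 positive and 1 negative genes without the minimum, 0 with ninaE in place of trp as the term, 4 without the 2 libraries farthest in trp, and 81 in all libraries under 100 RPKM. Leaving out 1 library gave 12 to 19 positive and 0 to 1 negative calls. Without the 2 farthest libraries the slopes of Rh4, Rh5 and Rh6, which had not been called, turned to -0.0779, -0.447 and -0.224. PDE calls with the trp term were 7 (without male PDE 4), 8 (without male PDE 3) to 17 in males and 5 to 8 in females when 1 library was left out, with 8 without male PDE 6 or without female PDE 1, and 6 in males without the retina-rich libraries and the term. Where the cause is not a smaller set of genes or libraries, the cause was not tested. Over the named genes, 158 of 1374 recomputed tests lost their call, 28 gained one and 3 reversed, and 209 of 3160 recomputed differences in the split moved by more than the spread between replicates.

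The replicate numbers gave no clear pairing of the libraries. Over 34 same-numbered pairs the deviations from the group means correlated from -0.69 to 0.75 (median 0.08, other pairs -0.03), with 16 pairs over 0.1. Only 3 of 25 libraries correlated best with a library of their own number. Retinal content also enters these deviations, so whether a number marks a shared batch cannot be told from them. With a replicate block, 87 genes were higher and 0 lower in the split, and 12 male and 6 female PDE calls were made with the trp term. Library totals of 8.88 M reads (1e6) or more limit the low genes, whose values under 1 RPKM the pseudocount also compresses.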
